A study of Mus musculus with 6 samples.

Results

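The genes described here encode the mitotic kinases of the Aurora and Polo families, the NIMA-related kinase Nek2, and the proteins that activate or anchor them. They were chosen by name, as the rows of the deposited count table for Aurka, Aurkb, Plk1, Plk4, Nek2, Tpx2, Birc5, Incenp, Cdca8 and Bora. All 10 were found, each in a single row, among 41795 features, and 9 of them were among the 15223 genes with enough counts to test. RNA was sequenced from breast cancer cells of FVB/N-Tg(MMTV-PyVT)634Mul/J mice, in which the mouse mammary tumour virus promoter drives polyoma virus middle T antigen in mammary epithelium. A group of 3 libraries came from quiescent cancer stem cells (CSCs), tumour cells able to regrow a tumour but resting outside the cell cycle, and a group of 3 from activated CSCs. Both groups carry the transgene, and the labels name no further agent, no age and no sorting or activation step. Nor do they say that the libraries came from separate animals or cultures, so p-values cover only the scatter among these libraries, and that scatter may be technical.

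Entry into and passage through mitosis is driven by a small set of protein kinases. Aurora A, which sits at spindle poles, is switched on by Tpx2 on the spindle and, together with Bora, activates the Polo-like kinase PLK1. Aurora B works inside the chromosomal passenger complex with the scaffold Incenp and the targeting subunits survivin (Birc5) and borealin (Cdca8), correcting faulty attachments of chromosomes and later guiding cytokinesis. PLK4 controls centriole duplication, and NEK2 helps centrosomes separate. Many of these genes are transcribed mainly in G2 and mitosis, through promoter elements named the CHR (cell cycle genes homology region) and the CCAAT box, and quiescent cells keep them low.

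Promoter sequences, taken from RefSeq tables of GRCm38.p6, were at hand for 6 of the 10 genes and cover 250 bases before to 50 bases after the annotated start site. They are shown for Plk1, the gene that rose most, for Cdca8, which also rose, and for Plk4, which did not pass the test. Capitals mark matches to the CHR (TTTGAA or TTTAAA), the CCAAT box (CCAAT) or an E2F core (TTCGCGC and the variants TTGGCGC or also TTCCCGC or lastly TTGCCGC), each searched on both strands, so that ATTGG is a CCAAT box on the opposite strand. The windows lie at chr7:122159185-122159484 on the plus strand for Plk1, at chr4:124936868-124937167 on the minus strand for Cdca8 and at chr3:40799701-40800000 on the plus strand for Plk4, and each is printed 5′ to 3′ along its gene.
Plk1: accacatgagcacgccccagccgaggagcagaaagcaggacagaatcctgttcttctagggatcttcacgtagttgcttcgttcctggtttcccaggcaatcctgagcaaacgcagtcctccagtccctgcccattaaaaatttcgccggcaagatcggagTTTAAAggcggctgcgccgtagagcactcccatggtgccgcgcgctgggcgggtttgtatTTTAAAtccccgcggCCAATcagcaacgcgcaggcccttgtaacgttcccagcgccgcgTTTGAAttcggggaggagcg
Cdca8: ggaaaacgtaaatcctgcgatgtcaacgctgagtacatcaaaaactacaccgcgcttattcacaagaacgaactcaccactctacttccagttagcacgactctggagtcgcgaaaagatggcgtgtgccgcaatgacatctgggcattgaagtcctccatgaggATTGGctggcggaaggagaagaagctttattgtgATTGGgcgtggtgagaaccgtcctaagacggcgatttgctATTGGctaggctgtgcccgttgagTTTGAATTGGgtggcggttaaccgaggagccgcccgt
Plk4: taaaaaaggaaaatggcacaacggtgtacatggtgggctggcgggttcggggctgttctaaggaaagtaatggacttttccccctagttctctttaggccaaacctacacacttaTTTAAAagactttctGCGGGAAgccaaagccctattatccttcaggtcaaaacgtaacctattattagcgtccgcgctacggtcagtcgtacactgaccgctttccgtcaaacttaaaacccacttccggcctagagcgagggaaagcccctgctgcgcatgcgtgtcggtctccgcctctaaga

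The Plk1 window held 3 CHR matches, beginning at -89, -29 and 31 from the start site, and 1 CCAAT box at -14. The Cdca8 window held 4 CCAAT boxes, beginning at -85, -51, -11 and 19, and 1 CHR match at 14 that overlaps the last of them. In the Plk4 window a CHR match began at -135 and an E2F core at -120, with no CCAAT letters. Of the promoters not printed, Aurka held 2 CHR matches and 2 CCAAT boxes, Birc5 held 1 CHR match at -220, and Nek2 held 2 CCAAT boxes and no CHR letters. Thus 5 of 6 windows held a CHR match, 4 of 6 a CCAAT box and 1 of 6 an E2F core. Among all 32851 promoter windows of that length the shares were 27.6% for the CHR, 37.4% for the CCAAT box and 9.57% for the E2F core. For Aurka and Plk4 no stretch of 20 bases of the window was found in a GENCODE M21 transcript of the gene, so their start sites rest on RefSeq alone. For Aurka and Nek2 the counted gene model begins further upstream, inside the window, so motif positions would differ if measured from there. These matches describe letters in a fixed window and not binding.

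**Figure D1:**
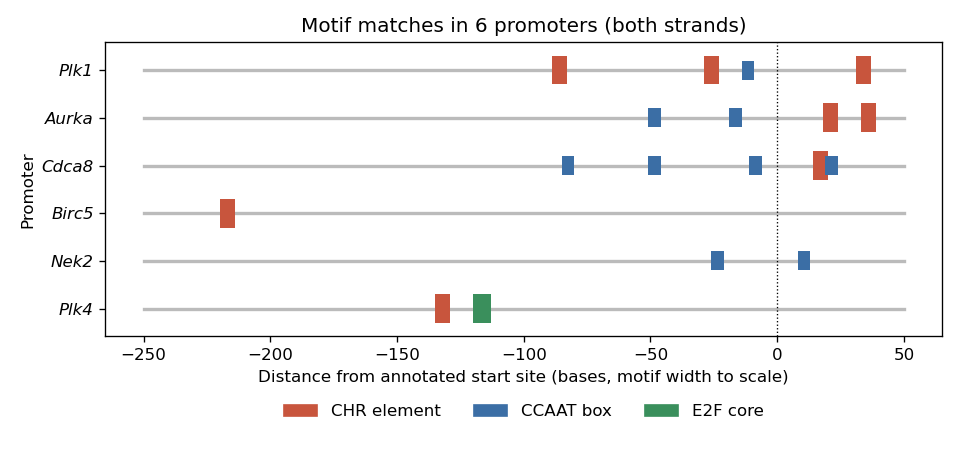
Positions of motif matches in the promoter windows of 6 genes, with the distance from the annotated start site in bases on the x axis and a coloured block for each CHR element, CCAAT box or E2F core. Plk1 and Aurka hold CHR matches and CCAAT boxes close to the start site, Cdca8 holds 4 CCAAT boxes, and Plk4 alone holds an E2F core.

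The comparison of activated with quiescent CSCs asked how these genes differ between the states that the labels name. The libraries do not measure cell division itself. Of the 9 genes tested, 8 rose and 0 fell, and Plk4 did not pass (edgeR quasi-likelihood test, adjusted p under 0.05 over all genes). Over all genes tested 47.5% were called, 24.1% higher and 23.4% lower. Each of the 8 rose by a log2 fold change of at least 1, a rule that called 5.94% of all genes higher. Every activated library was above every quiescent library for 9 of the 10 genes, Nek2 included, and Plk4 overlapped. For Nek2 the closest quiescent and activated libraries held 9 counts each, and only the scaling to library size set them apart. Of all genes tested 27.9% had every activated library higher and 28.0% every activated library lower. In RNA from many cells, more dividing cells and more transcript in each dividing cell cannot be told apart.

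Library totals ran from 17785331 to 20510377 counts, and levels are given as CPM, which put each count on a common library size after TMM scaling. The 10 genes together had 1699 to 1925 counts in a quiescent library and 7146 to 8046 in an activated one. Cycling markers were also higher, Mki67 4.8-fold and Top2a 3.94-fold, but Pcna only 1.2-fold (130 to 155 CPM). Their summed level was 247 to 264 CPM in quiescent and 668 to 715 CPM in activated libraries. Mammary epithelial markers summed to 7349 to 7640 and 6814 to 7011 CPM, with 2 of 7 higher and 2 lower. Fibroblast markers were higher for 6 of 7 (803 to 830 against 1415 to 1568 CPM) and myeloid markers for 4 of 7, with 1 lower (758 to 811 against 1110 to 1126 CPM). Most of the myeloid sum was Cd14, at a mean of 441 CPM in quiescent and 702 CPM in activated libraries. Cd68 was the lower one, and Ptprc and Adgre1 did not pass (edgeR adjusted p = 0.0653 and 0.76). Endothelial and adipocyte markers summed to at most 3.997 and 3.84 CPM, with 0 of them changed. T cell markers summed to at most 0.506 CPM. The part of fibroblast and myeloid cells in the results was not tested.

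**Figure D2:**
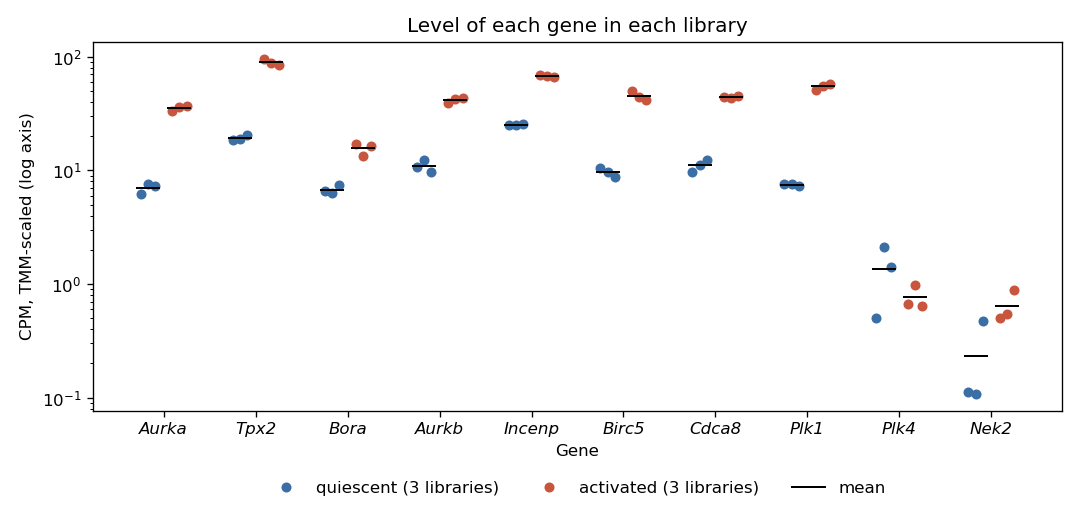
Level of each of the 10 genes in each library, in TMM-scaled CPM on a log axis, with quiescent libraries in blue, activated libraries in red and a black line at each mean. For 8 genes the activated points lie well above the quiescent ones, while Plk4 and Nek2 lie near or below 1 CPM in most libraries.

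Aurka, Tpx2 and Bora all rose. Aurka (NCBI gene 20878, GRCm38 chromosome 2, 172356190 to 172370706, minus strand), which encodes Aurora A, stood at 6.24, 7.52 and 7.25 CPM in the quiescent and 33.1, 35.8 and 36.8 CPM in the activated libraries. The lowest activated value was thus several times the highest quiescent one, and the fitted change was 5.02-fold (log2 2.33, SE 0.09, edgeR adjusted p = 1.63e-12). The first 21 bases of its gene model overlap Cstf1, a polyadenylation factor gene on the other strand, which moved far less (log2 0.15, SE 0.06). Tpx2 (chromosome 2, 152847964 to 152895321, plus strand), the spindle protein that holds Aurora A in its active form, stood at 18.7, 18.7 and 20.6 CPM and then at 95.1, 88.4 and 84.7 CPM. The groups lay far apart, with a rise of 4.62-fold (log2 2.21, SE 0.06, edgeR adjusted p = 2.74e-14).

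Bora (chromosome 14, 99046247 to 99074540, plus strand), the cofactor with which Aurora A activates PLK1, rose the least of the 8. It stood at 6.64, 6.28 and 7.41 CPM in quiescent and at 17.1, 13.4 and 16.3 CPM in activated libraries, a 2.3-fold rise (log2 1.2, SE 0.12, edgeR adjusted p = 2.24e-07). The groups did not overlap, although the activated libraries varied among themselves by 12.5% of their mean. Its last 683 bases overlap Dis3, an RNA exosome gene on the other strand that rose by a log2 of 0.34 (SE 0.08). Whether reads were counted by strand is not stated in the sources used here, so reads in such overlaps cannot be assigned to a gene.

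All 4 subunits of the chromosomal passenger complex rose, by unequal amounts. Aurkb (chromosome 11, 69045625 to 69051664, plus strand), its kinase Aurora B, stood at 10.8, 12.4 and 9.61 CPM and then at 39.2, 42.4 and 43.3 CPM, 3.8-fold (log2 1.93, SE 0.09, edgeR adjusted p = 1.87e-11). Birc5 (chromosome 11, 117849237 to 117855743, plus strand), which encodes survivin, stood at 10.5, 9.58 and 8.83 CPM and then at 49.5, 44.0 and 41.8 CPM, 4.68-fold (log2 2.23, SE 0.09, edgeR adjusted p = 1.98e-12). Survivin is a member of the inhibitor of apoptosis (IAP) family and is scarce in most resting adult tissues. Cdca8 (chromosome 4, 124918465 to 124936917, minus strand), which encodes borealin, stood at 9.67, 11.2 and 12.4 CPM and then at 44.3, 43.1 and 44.9 CPM, 3.97-fold (log2 1.99, SE 0.09, edgeR adjusted p = 5.58e-12). For these 3 genes the activated libraries did not overlap with the quiescent ones.

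Incenp (chromosome 19, 9872297 to 9899546, minus strand), the scaffold on which the other subunits assemble, varied little within a state. Its level was 24.9, 25.0 and 25.8 CPM in quiescent and 69.2, 68.1 and 66.6 CPM in activated libraries, with an SD of 2.01% and 1.98% of the mean. The rise was 2.69-fold (log2 1.43, SE 0.05, edgeR adjusted p = 9.56e-13), the smallest of the complex.

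The balance between partners was compared as a ratio of counts per base of gene model within each library, which scaling does not touch. Aurkb over Incenp was 0.66, 0.756 and 0.566 in quiescent and 0.859, 0.946 and 0.987 in activated libraries, 1.42-fold higher. Birc5 over Incenp went from 0.409, 0.371 and 0.331 to 0.691, 0.625 and 0.607, 1.74-fold higher. Cdca8 over Incenp went from 0.791, 0.91 and 0.977 to 1.3, 1.29 and 1.37, 1.48-fold higher. In all 3 ratios the groups did not overlap. The size of a ratio depends on the gene lengths used, while the fold between states does not. With the longest GENCODE transcript in place of the deposited length, a choice made after seeing the data, Cdca8 over Incenp was 0.4, 0.46 and 0.494 and then 0.658, 0.65 and 0.693, so that it stayed below 1. With 3 libraries against 3 the exact two-sided permutation test cannot go below p = 0.1, and each of these ratios gave that value (0.125 after Benjamini-Hochberg adjustment over 5 ratios), so none could pass the threshold.

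The other pairs of partners differed from each other. Tpx2 over Aurka was 1.41, 1.17 and 1.34 in quiescent and 1.35, 1.16 and 1.08 in activated libraries. These values overlapped, with a log2 difference of -0.12 against a within-state SD of 0.14 and 0.16 (exact permutation p = 0.4, also 0.4 adjusted). Bora over Plk1 was lower in every activated library, at 0.412, 0.385 and 0.471 in quiescent and 0.156, 0.113 and 0.133 in activated ones, a ratio 0.315 times that of quiescent libraries (exact permutation p = 0.1, adjusted 0.125).

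**Figure D3:**
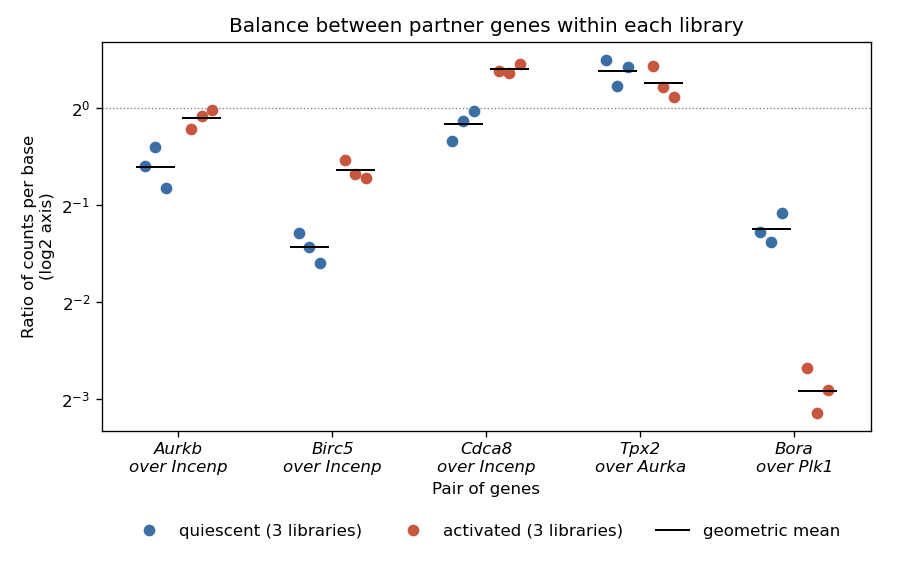
Ratio between partner genes within each library, as counts per base of gene model on a log2 axis, with 3 quiescent libraries in blue, 3 activated libraries in red and a line at the geometric mean. The 3 ratios to Incenp are higher in activated libraries, Tpx2 over Aurka overlaps between states, and Bora over Plk1 is lower in activated libraries.

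The Polo-like kinase genes did not move together. Plk1 (NCBI gene 18817, chromosome 7, 122159435 to 122169884, plus strand), the kinase that drives mitotic entry, centrosome maturation and cytokinesis, stood at 7.54, 7.63 and 7.36 CPM in quiescent and at 51.3, 55.4 and 57.2 CPM in activated libraries. It rose 7.28-fold (log2 2.86, SE 0.07, edgeR adjusted p = 8.36e-15), the largest change of the 10 genes and rank 68 of 15223 when all genes are ordered from the highest log2 fold change down. Mki67, a marker of dividing cells, rose 4.8-fold in the same libraries, while Setd4, the methyltransferase gene of the study's title, was at 9.54 ± 0.644 and 9.71 ± 0.371 CPM (adjusted p = 0.867). Of the 31-base words of the longest Plk1 transcript, 19.2% also occur in other genes, 15.2% in the pseudogene Plk-ps1. That pseudogene had 30, 20 and 27 counts in quiescent libraries, against 134, 141 and 140 for Plk1, and 29, 36 and 35 in activated ones, against 917, 1012 and 1172. Relative to Plk1 it was thus largest in the quiescent libraries, and the effect of reads shared between them on the fold was not tested.

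Plk4 (chromosome 3, 40799951 to 40816883, plus strand), the centriole kinase, had only 9, 39 and 27 counts in quiescent and 12, 18 and 13 in activated libraries. These are 0.506, 2.11 and 1.42 CPM against 0.672, 0.986 and 0.635 CPM, so the groups overlapped and the quiescent libraries spread by 59.8% of their mean. The log2 fold change was -0.82 (SE 0.43, 95% interval -1.76 to 0.12, edgeR adjusted p = 0.141). Without quiescent replicate 1, the lowest library, it was -1.2 with an adjusted p = 0.0108, and without quiescent replicate 2, the highest, it was -0.35 with an adjusted p = 0.575. The summed counts gave a ratio of 0.56, and the exact Clopper-Pearson bounds on it at 95% were 0.376 and 0.826, for counting error only.

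Nek2 (chromosome 1, 191821281 to 191833049, plus strand), the centrosome-splitting kinase, had 2, 2 and 9 counts in quiescent and 9, 10 and 18 in activated libraries. At 0.112, 0.108 and 0.473 CPM against 0.504, 0.548 and 0.879 CPM the activated libraries were all higher. The closest pair, quiescent replicate 3 and activated replicate 1, had 9 counts each and differed only through library size. It did not reach the filter on low counts and was not tested in the planned fit. With no filter the fitted log2 value was 1.45 (SE 0.53, edgeR adjusted p = 0.0258). With the filter kept it could be tested only where 1 of 4 libraries was left out. The adjusted p was then 0.153 without quiescent replicate 1, 0.159 without quiescent replicate 2, 0.00825 without quiescent replicate 3, and it was 0.0335 when activated replicate 1 was omitted. The ratio of summed counts was 2.78, with such bounds at 1.44 and 5.7. Of the 31-base words of the longest transcript, 10.4% for Plk4 and 8.38% for Nek2 occur in another gene, in each case a single GENCODE gene model that is no row of the count table.

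**Figure D4:**
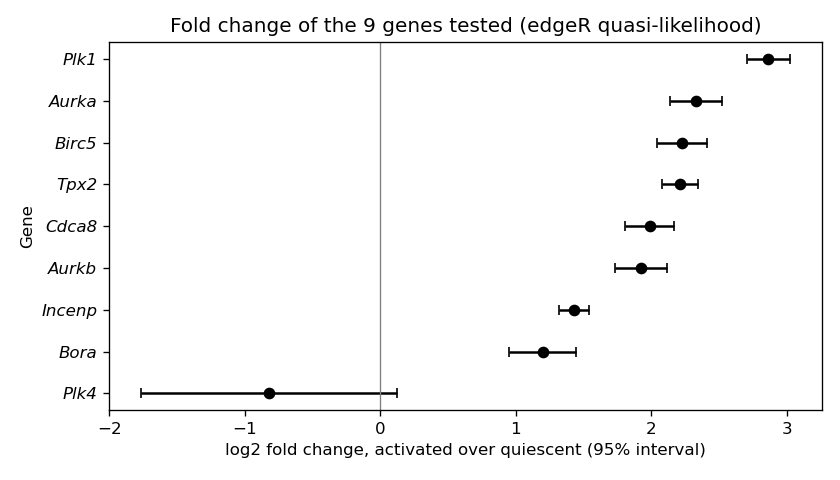
Log2 fold change, activated over quiescent, of the 9 genes tested, with 95% intervals from the edgeR quasi-likelihood fit. The intervals of 8 genes lie above 0, from Bora at 1.2 to Plk1 at 2.86, and the interval of Plk4 spans 0.

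Levels of different genes can be compared only per length, here as CPM per kilobase of the deposited gene model. In quiescent libraries the order was Incenp at 7.63 ± 0.154, Cdca8 at 6.82 ± 0.841, Aurkb at 5.03 ± 0.653, Tpx2 at 4.43 ± 0.251, Aurka at 3.41 ± 0.328, Plk1 at 3.39 ± 0.0628, Birc5 at 2.82 ± 0.248 and Bora at 1.43 ± 0.122 CPM per kilobase (SD, n = 3). Plk4 followed at 0.175 ± 0.105 and Nek2 at 0.0351 ± 0.0318. The ranges over libraries of Incenp and Cdca8, of Aurkb and Tpx2, of Aurka and Plk1, and of Plk4 and Nek2 overlapped. Within each quiescent library, however, Incenp was above Cdca8 and Plk4 above Nek2. The order of Aurkb and Tpx2, and that of Aurka and Plk1, changed between libraries. In activated libraries Cdca8 stood at 27.1 ± 0.564 CPM per kilobase and Plk1 at 24.7 ± 1.37, which had lain below Incenp, Aurkb and Tpx2 in quiescent libraries. Incenp at 20.6 ± 0.408 overlapped with Tpx2 at 20.5 ± 1.21, and Tpx2 with Aurkb at 19.1 ± 0.992. Aurka at 17.1 ± 0.931, Birc5 at 13.2 ± 1.16 and Bora at 3.29 ± 0.412 lay apart from their neighbours, and Plk4 at 0.0997 ± 0.0251 overlapped with Nek2 at 0.0977 ± 0.0312 CPM per kilobase. This order depends on the deposited lengths, which for Cdca8 is 1626 bases against 3358 for its longest GENCODE transcript, for Plk4 7667 against 3479 and for Nek2 6586 against 3227. With the longest transcripts Cdca8 was at 3.3 ± 0.407 and 13.1 ± 0.273 CPM per kilobase, below Incenp, Aurkb, Tpx2, Aurka and Plk1 in both states by its mean, and in activated libraries Plk1 came first at 24.9 ± 1.37. Plk4 and Nek2 remained the 2 lowest, at 0.22 ± 0.0554 and 0.199 ± 0.0636 CPM per kilobase in activated libraries.

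Partners and relatives of these genes were taken from 10 lists with 153 genes, of which 145 were tested. Among these 75 rose (51.7%) and 17 fell, with a median log2 fold change of 0.23, against a median of 0.00 over all genes tested, of which 24.1% rose and 23.4% fell. The share that rose ran from 22.2% of the kinase relatives and 22.7% of the opposing phosphatases, both near that of all genes, to 88.9% of the genes of passenger recruitment. It was 42.1% to 50% in the lists of destruction machinery, survivin relatives, centrosome linker and regulators of G2/M promoters, and 57.1% to 75% in the others. As the lists were chosen with earlier results of these data known, these shares are a description and not a test.

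Genes that bring the passenger complex to chromosomes, or are its targets, rose for 16 of 18, with 1 lower and a median log2 of 1.98. The lower one was Usp9x, a deubiquitinase that acts on survivin, named after its value was seen (log2 -0.10, SE 0.04, edgeR adjusted p = 0.0369), and this list had 0 lower under 8 of 19 alternatives that keep the rule on adjusted p alone. Cenpa, the centromeric histone, rose from 5.6 ± 0.858 to 42.6 ± 0.902 CPM (SD, n = 3; log2 2.92, SE 0.10, edgeR adjusted p = 2.22e-13). Racgap1, of the central spindle, rose 4.82-fold and Kif4, a chromosome-bound kinesin, 4.34-fold. Bub1 and Gsg2 (haspin), kinases whose histone marks recruit the complex, rose 4.18-fold and 2.54-fold, and were named after their values were seen. Rcc2, a centromere protein also called TD-60, was at 174 ± 5.92 and 183 ± 13.0 CPM (adjusted p = 0.212).

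Among partners of PLK1, 12 of 16 rose and 1 fell, with a median log2 of 1.01. Prc1, a microtubule bundler of the central spindle, rose 4.61-fold, Bub1b, the checkpoint protein BubR1, 5.7-fold, and Ect2, the exchange factor that starts cytokinesis, 3.15-fold. Of the highly expressed members Ppp1r12a, a phosphatase subunit that counters PLK1, was at 118 ± 4.02 and 110 ± 6.06 CPM (adjusted p = 0.0847).

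Of 14 Aurora A partners 8 rose and 1 fell, with a median log2 of 0.38. Hmmr, a spindle protein, rose from 9.74 ± 1.28 to 61.8 ± 5.01 CPM, Tacc3, an Aurora A substrate that stabilises spindle microtubules, from 15.6 ± 0.886 to 57.8 ± 2.49 CPM, and Kpna2, an importin, 1.9-fold. Hsp90aa1, a chaperone, was at 805 ± 13.4 and 760 ± 15.2 CPM (adjusted p = 0.0756). Ajuba, the LIM protein known as an Aurora A activator, was the member that fell, from 115 ± 2.35 to 57.8 ± 5.13 CPM (log2 -0.99, SE 0.06, edgeR adjusted p = 3.56e-10), and is named here after its value was seen.

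Although Plk4 itself was near the floor, 7 of 11 tested genes of centriole duplication rose and 0 fell, with a median log2 of 0.42. Stil and Sass6, which build the new centriole with PLK4, rose 2.53-fold and 2.07-fold, and Rttn, a centriole protein, 1.65-fold. Fbxw5, a ubiquitin ligase subunit, was at 52.2 ± 2.11 and 51.1 ± 3.47 CPM (adjusted p = 0.693). The 11 genes listed with the centrosome linker, which NEK2 dissolves, include some, such as Stk3 and Sav1, that are not linker components. Of the 11, 5 rose and 1 fell, with a median of 0.19. The gene that fell was Stk3, a kinase, named after its value was seen (log2 -0.20, SE 0.06, edgeR adjusted p = 0.0138). Cdk5rap2 rose 1.51-fold, Cntln 2.25-fold and Lrrc45 1.17-fold, while the linker anchor Cep250 was at 58.8 ± 1.19 and 61.5 ± 4.31 CPM (adjusted p = 0.382).

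**Figure D5:**
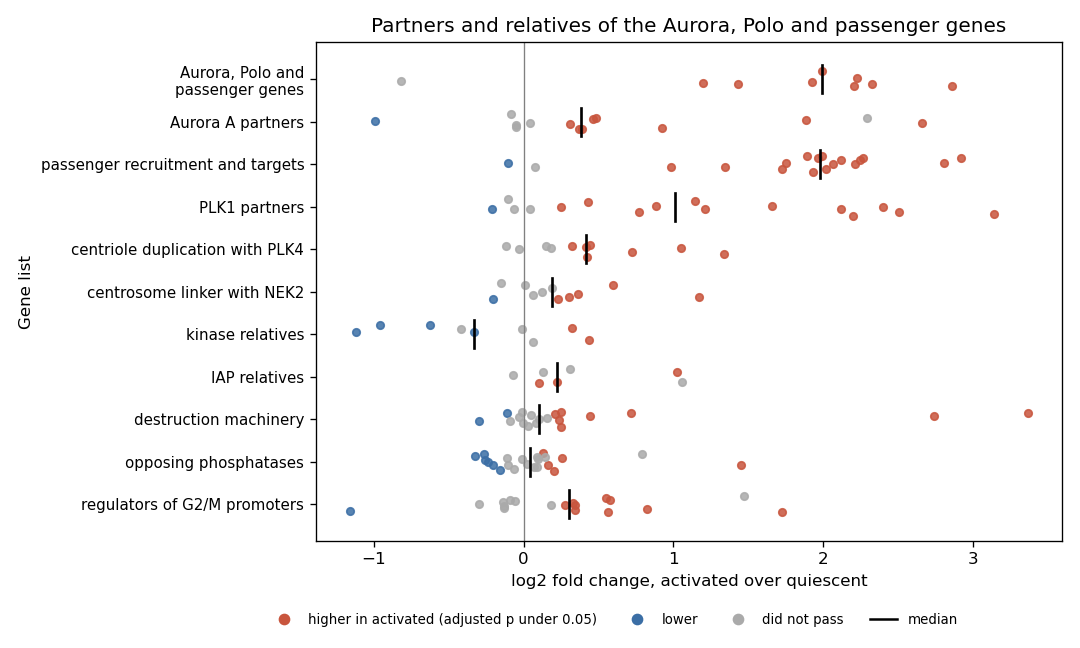
Log2 fold change, activated over quiescent, of each tested gene of the Aurora, Polo and passenger set and of 10 lists of partners and relatives, coloured by whether it was higher, lower or did not pass, with a black line at each median. The passenger recruitment list has a median of 1.98, and the kinase relatives have a median of -0.33.

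Of the relatives of the kinases 2 of 9 tested genes rose and 4 fell, with a median log2 of -0.33. Plk2, a stress-responsive Polo-like kinase, fell from 370 ± 2.79 to 190 ± 5.62 CPM (log2 -0.96, SE 0.04, edgeR adjusted p = 1.33e-12). Plk3, also induced by stress, fell from 94.9 ± 2.97 to 43.6 ± 1.28 CPM (log2 -1.12, SE 0.05, edgeR adjusted p = 1.21e-11). Nek7, which acts at the spindle and in the inflammasome, fell from 178 ± 6.23 to 142 ± 1.62 CPM, and Nek9, which acts upstream of it, was at 137 ± 1.57 and 143 ± 12.6 CPM (adjusted p = 0.371). Aurkc, the germline Aurora kinase, was at 0.0886 ± 0.0806 and 0.0365 ± 0.0632 CPM and was not tested. Among relatives of survivin 3 of 7 rose and 0 fell, but by less than Birc5, with Birc2 at 1.17-fold, Birc6 at 1.07-fold and Naip6 at 2.03-fold, and Xiap at 101 ± 5.67 and 96.7 ± 2.5 CPM (adjusted p = 0.27). Naip genes lie in a cluster of similar copies, which may share reads.

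Genes that end or oppose the activity of these kinases held members that rose and members that fell. Of 19 genes of the ubiquitin machinery that destroys them, 8 rose and 2 fell (1 under 14 of those 19 alternatives), with a median log2 of 0.10. Cdc20, Ube2c and Ube2s, which activate or serve the anaphase-promoting complex, rose by 3.37, 2.74 and 0.72 on the log2 scale, while the shared ligase subunit Skp1a was at 258 ± 9.77 and 252 ± 8.09 CPM (adjusted p = 0.58). Of 22 opposing phosphatase genes and their inhibitors 5 rose and 6 fell, with a median of 0.04, and 3 to 7 rose over those alternatives. Mastl (Greatwall), the kinase that holds back the phosphatase PP2A in mitosis, rose from 9 ± 0.707 to 24.7 ± 0.961 CPM (log2 1.45, SE 0.09, edgeR adjusted p = 6.37e-10). Its target Ensa fell from 110 ± 4.66 to 87.5 ± 0.842 CPM, Ppp1cb, a catalytic subunit of PP1, rose 1.2-fold, and the PP2A scaffold Ppp2r1a was at 316 ± 9.08 and 321 ± 27.7 CPM (adjusted p = 0.785).

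Of 18 regulators of G2/M promoters 9 rose and 1 fell, with a median log2 of 0.30. Foxm1, an activator of mitotic genes, rose from 13.6 ± 1.4 to 44.9 ± 1.96 CPM (log2 1.73, SE 0.08, edgeR adjusted p = 1.61e-11), and Rbl1 (p107), a pocket protein, rose 1.48-fold. Cdkn1a, whose product p21 leads to repression of CHR promoters, was the gene that fell, from 404 ± 9.08 to 181 ± 8.32 CPM, and Trp53 was at 171 ± 1.03 and 165 ± 1.34 CPM (adjusted p = 0.226).

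Across the 6 libraries the 5 protein-coding genes most like the mean log2 CPM of the 10 genes were Espl1, Lima1, Bhlha15, Cbx6 and Gk5, with Pearson r from 0.9991 to 0.9998. Because the libraries form 2 groups, such an r mainly describes the step between states and the evenness within them, and it is given with no test. The mean weighs all 10 genes alike, so the scatter of the low counts of Plk4 and Nek2 enters it. In quiescent libraries the mean was 2.45, 2.68 and 2.77, while Plk4 had 9, 39 and 27 counts. Which genes come first may therefore depend on that scatter, which was not tested. Espl1, which encodes separase, the protease that splits sister chromatids, rose 4.12-fold, whereas Lima1, a cytoskeletal gene, rose 1.39-fold. Among the 10 genes the r of each with the mean of the others was highest for Cdca8 at 0.9995, was 0.786 for Nek2 and was -0.42 for Plk4.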

How the data were processed

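The deposited table holds raw counts per gene, per the file headers, in whole numbers whose totals differ between libraries; the authors deposited gene lengths in bases beside them. The submitters' processing notes name featureCounts 1.5.0-p3, HISAT2 2.0.5 and StringTie 1.3.3b but not their roles, and the coordinates use GRCm38 accessions. The members and lists were chosen with earlier results of these data known. The test was that of edgeR 4.0.16 (R 4.3.3; quasi-likelihood with robust estimation, TMM, filterByExpr, Benjamini-Hochberg over 15223 genes, threshold 0.05), with all 6 libraries and no block, and the fit was checked on simulated data. In the simulated data every gene had the same spread beyond counting error, and far fewer genes changed than were called here. That check therefore does not cover genes with uneven counts such as Plk4. Adjusted p are from the edgeR fit above unless another setting is named. Fold changes are activated over quiescent, and SE is of the log2 value. Other genes named from each list are up to 3 with the smallest adjusted p, and the gene with the highest level that did not pass. Mki67 and Setd4 served as reference genes, and the 5 genes most like the members were ranked by Pearson r of log2 CPM (prior count 2). Any other was chosen after its value was seen. No pair of libraries of a state was alike within sampling noise, with a chi-square of 3.99 to 7.94 times its degrees of freedom over genes with a mean of at least 20 counts. Near-identical gene copies may share reads. The result of a marker list fixed in the design is not reported here. Shared words of 31 bases were counted in GENCODE M21 transcripts.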

Additional observations from a re-analysis of the deposited data

How the results depend on the processing

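The 8 genes that rose kept their direction and their call under all 20 alternatives (160 of 160 values), which were other scalings, DESeq2 1.42.0, limma-voom of limma 3.58.1, other filters and thresholds, other sets of genes, no robust estimation, the replicate block and omission of each library. The count that rose was 9 where Nek2 was tested and passed, and otherwise 8. Without each library in turn, log2 fold changes were 2.25 to 2.38 for Aurka, 2.17 to 2.26 for Tpx2, 1.13 to 1.3 for Bora, 1.84 to 2.03 for Aurkb, 1.42 to 1.45 for Incenp, 2.16 to 2.29 for Birc5, 1.9 to 2.08 for Cdca8 and 2.83 to 2.91 for Plk1. Plk4 passed as lower with no filter beyond 1 count (log2 -0.82, adjusted p = 0.0478) and without quiescent replicate 1 (adjusted p = 0.0108), so that 1 gene of the 10 was then lower. Its log2 ran from -1.2 to -0.35 over the libraries left out, and the cause was not tested. Over all its alternatives its adjusted p ran from 0.0108 to 0.575. Its counts were under the filter of at least 1 CPM in 3 libraries, which gave no value. Nek2 had a value only with no filter (log2 1.45) and without 4 of the libraries in turn, from 1.11 to 2.49, with adjusted p from 0.00825 to 0.159. Over all genes DESeq2 called 6298, and leaving out each library gave 6387 to 7359. A log2 fold change of at least 1 left 1420 genes, 904 higher and 516 lower, and left 33 higher and 2 lower of the list genes, against 75 and 17, as that rule keeps fewer genes by construction. Same-numbered libraries did not deviate together (r of 0.00782, -0.0298 and 0.0438), so no pairing by number was seen. A weak pairing could go unseen in such an r, and the labels do not say whether a number marks a shared source. With the replicate as a block 7042 genes were called, the members gave 8 higher and 0 lower, and Plk4 stood at -0.75. No call of a member changed under the block. Leaving out each library moved the log2 difference of Aurkb over Incenp between 0.4 and 0.6, of Birc5 between 0.72 and 0.87, of Cdca8 between 0.48 and 0.64, of Tpx2 over Aurka between -0.21 and -0.05 and of Bora over Plk1 between -1.78 and -1.55. At under 40 counts per library, depth limits what can be said of Plk4 and Nek2. How strand and reads that match several genes were treated is not stated, and the part of the counting in these low levels was not tested. Among the list counts, with the log2 rule set aside, lower calls moved by over 1.5 times in 6 of the lists, among them 1 to 0 for PLK1 partners and the centrosome linker.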

Other observations

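Among the tested list genes 3 had counts that swung within a state, with the highest CPM over 3 times the lowest. They were chosen after their values were seen. Kif11, the spindle kinesin that Aurora A phosphorylates, had 10, 25 and 51 counts in quiescent and 195, 44 and 193 in activated libraries, and its log2 of 2.29 (SE 0.85) had an edgeR adjusted p = 0.0976. Nfya, a subunit of the factor that binds CCAAT boxes, had 95, 68 and 88 counts and then 260, 346 and 92 (adjusted p = 0.13). Ppp2r5b, a regulatory subunit of PP2A, had 20, 125 and 213 counts and then 310, 96 and 216 (adjusted p = 0.541). None of the 10 genes met that definition of unstable counts, in which CPM below 1 is set to 1. Nek2 could not meet it, as all its values were below 1 CPM. Without that step, quiescent values ran from 0.506 to 2.11 CPM for Plk4 and from 0.108 to 0.473 CPM for Nek2. In both the highest was over 3 times the lowest.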
